A study of Homo sapiens with 32 samples.

Results

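The 35 genes described here express the human mitochondrial genome: the 13 protein-coding messages of mitochondrial DNA and 22 nuclear-encoded factors that transcribe, stabilise, degrade and translate them. They were taken by symbol, through the Ensembl identifiers of the deposited table, from the 19023 genes counted there, and 35 of 35 were found. The study followed RPE-1 cells, an established line from human retinal pigment epithelium labelled WT, that had been kept without serum for 18 h and were then given serum for 0, 5, 10 or 15 h. Each time had 4 biological replicates, and each replicate number has both a footprint (Ribo-seq, ribosome-protected fragments) library and a total RNA library after ribosomal RNA removal, 32 libraries in all. Every group, the 0 h group included, had gone through the starvation. No library from cells kept without serum to 5, 10 or 15 h was used here, so an effect of serum and one of the hours passed cannot be told apart.

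Human mitochondrial DNA is transcribed from both of its strands as long precursors, which are cut into ribosomal RNAs, transfer RNAs and messages for subunits of the respiratory chain and ATP synthase. Mitochondrial ribosomes inside the organelle translate these messages, while every factor that acts on them is made on cytosolic ribosomes from nuclear genes and then imported. Footprint libraries of whole cells hold fragments from both kinds of ribosome. Counts on a mitochondrially encoded message are taken here to report on the organelle's ribosomes, and those on a nuclear-encoded factor on the cytosol's. Only counts per gene were used, so whether each fragment came from a ribosome was not examined. Serum addition to starved cells is known to raise cytosolic protein synthesis.

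Libraries held 2851423 to 9901322 counts in footprints and 595851 to 1107470 in RNA. The epithelial keratins KRT8 and KRT18 were abundant in RNA, with medians of 656 and 811 CPM (counts relative to a library total adjusted by TMM scaling). Of 12 markers of differentiated pigment epithelium, RPE65, TYR, PMEL and TTR had 0 to 4 counts over the 16 RNA libraries, while MITF (359 counts), RDH5 (149), OTX2 (108), MERTK (91) and BEST1 (85) were detected and RLBP1, TYRP1 and SERPINF1 had 14 to 20. Of the blood markers, CD3E and HBB had 0 counts, PTPRC 7, ITGAM 50 and CD68 234. Of 7 fibroblast markers, DCN and LUM had 2 counts each and COL1A2 and COL1A1 14 and 24, while PDGFRA had 178, PDGFRB 778 and THY1 1583. Identity genes moved with time as well. In footprints at 15 h against 0 h, 8 of 8 tested markers of pigment epithelium fell, where 39.6% of all genes fell. Of 4 fibroblast markers tested 3 fell and 1 rose, with the growth factor receptor gene PDGFRB at -3.99 ± 0.06 and THY1 at 0.25 ± 0.05. The keratins rose, 2 of 2, where 40.1% of all genes rose. The part of these genes in the results below was not tested. The RNA of 12 mitochondrially encoded messages and 21 nuclear factors passed the filter on low counts and was tested. MT-ATP8, with 16 RNA counts in all, and MTRF1L did not pass, while all 35 passed in footprints.

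Footprints on mitochondrially encoded messages fell relative to all other footprints at every time after serum. They made up 0.942%, 0.807%, 0.528% and 0.611% of the counts in the replicates at 0 h. The share was 0.306%, 0.363%, 0.253% and 0.199% at 5 h, 0.237%, 0.221%, 0.153% and 0.192% at 10 h, and 0.203%, 0.190%, 0.134% and 0.129% at 15 h. The mean at 15 h, 0.164% ± 0.038 (SD, n = 4), was 4.397-fold lower than the mean at 0 h, 0.722% ± 0.187, and every library at 5, 10 or 15 h lay below every library at 0 h. Replicates 1 and 2 had higher shares than replicates 3 and 4 at each of the 4 times. The main fits hold no term for replicate number, so this difference is part of their errors for these messages. The raw counts also differed: 9590 to 18821 mitochondrial footprints per library at 15 h and 26837 to 32593 at 0 h, although the 15 h libraries held on average more counts in total. These are shares of a library with no spike-in described. Fewer mitochondrial footprints per cell and more cytosolic footprints per cell cannot be told apart from them, and in bulk RNA neither can fewer cells with a message and less of it per cell.

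**Figure D1:**
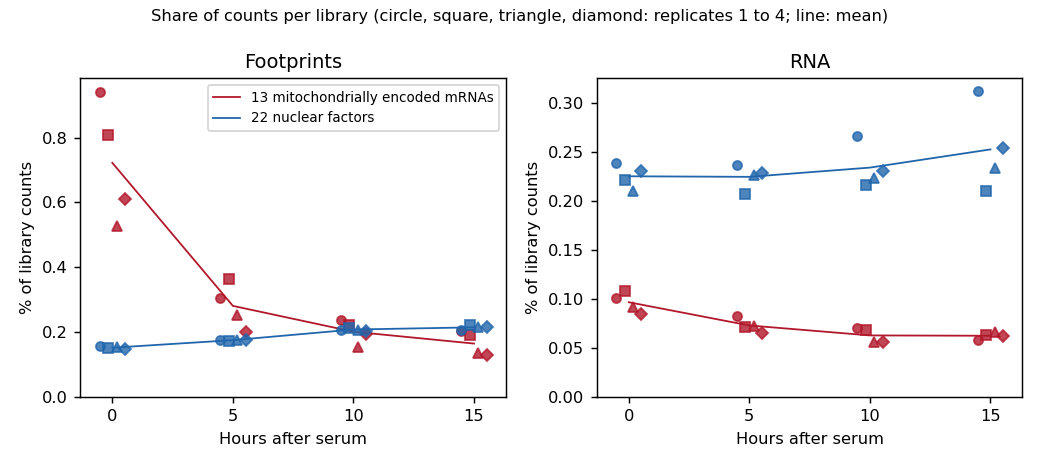
Share of each library's counts (y axis, %) on the 13 mitochondrially encoded messages (red) and the 22 nuclear factors (blue) against hours after serum, with footprints on the left and RNA on the right; marks are replicates 1 to 4 and lines are means of 4. In footprints the mitochondrial share averaged 0.164% at 15 h and 0.722% at 0 h, and the share of the nuclear factors 0.214% at 15 h and 0.151% at 0 h, so the lines cross between 5 and 10 h.

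All 13 messages were called lower in footprints at 5, 10 and 15 h against 0 h (edgeR quasi-likelihood test with Benjamini-Hochberg adjustment over all genes tested, call at adjusted p under 0.05). The background is high: 75.7% of the 10959 genes tested in footprints were called at 5 h in either direction and 40.5% were lower, against 78.4% and 39% at 10 h and 79.7% and 39.6% at 15 h. The members' median log2 change was -1.03 at 5 h, -1.65 at 10 h and -1.92 at 15 h, beside medians of -0.07, -0.02 and -0.01 over all genes. None of the 39 calls ended when any 1 library was left out. When only the 2 groups compared entered the fit, MT-ND2 at 5 h missed the threshold, at -0.78 (adjusted p = 0.0565).

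MT-CO1 encodes the catalytic subunit of cytochrome c oxidase (complex IV). Its footprints were 1940.5, 1606, 1092 and 1274 CPM at 0 h, 743, 971, 621 and 486 CPM at 5 h, 519, 521, 331 and 450.5 CPM at 10 h and 498, 461, 323 and 289 CPM at 15 h. All libraries after serum were below all at 0 h, and the 15 h libraries overlapped those at 10 h. The log2 change was -1.07 ± 0.26 (SE) at 5 h, -1.70 ± 0.26 at 10 h and -1.92 ± 0.27 at 15 h (adjusted p = 1.76e-05), a 3.77-fold fall by 15 h. The other complex IV subunits differed in size of change at 15 h: MT-CO2 fell by 2.11 on the log2 scale (SE 0.24) and MT-CO3 by 1.32 (SE 0.22).

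The largest fall was that of MT-ATP8, one of the 2 mitochondrially encoded subunits of ATP synthase. Its footprints were 9.66, 13.03, 5.65 and 7.002 CPM at 15 h, against 72.2, 61.8, 30.995 and 59.6 CPM at 0 h, and the groups did not overlap. The log2 change was -1.43 ± 0.33 at 5 h, -2.15 ± 0.35 at 10 h and -2.64 ± 0.38 at 15 h (adjusted p = 2.18e-05), 6.23-fold lower at 15 h. MT-ATP6, the other subunit, changed by -1.97 ± 0.23 at 15 h. The 2 genes lie on 1 message and share 46 bases in the annotation (chrMT:8366-8572 and chrMT:8527-9207, RefSeq GRCh38.p14). The lengths counted for the 13 genes were 57 to 60 bases shorter than their annotated spans, and the sources used here do not give how reads in shared bases were assigned.

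Complex I subunits, 7 of the 13 messages, ranged from -2.24 to -1.33 at 15 h. MT-ND4L, which shares 7 bases with MT-ND4, was at the lower end: 24.2, 21.7, 16.3 and 14.1 CPM at 15 h, against 119, 107, 56.7 and 78.9 CPM at 0 h (-2.24 ± 0.27, adjusted p = 4.1e-06). MT-ND6 was at the upper end; it is the one message read from the other DNA strand (chrMT:14149-14673). MT-ND6 had 91.1, 94.4, 64.6 and 81.3 CPM at 15 h, against 241, 219, 178 and 194 CPM at 0 h, again with no overlap (-1.33 ± 0.22, adjusted p = 8.6e-05). MT-ND2 had 41.6, 33.2, 23.2 and 23.3 CPM at 15 h and 109, 84.6, 55.4 and 59.8 CPM at 0 h (-1.35 ± 0.28), and MT-ND4 77.1, 64.6, 52.2 and 46.6 CPM at 15 h and 309, 245, 176 and 189.5 CPM at 0 h (-1.95 ± 0.23). In both genes the 15 h and 0 h libraries were apart. MT-CYB, cytochrome b of complex III, changed by -1.69 ± 0.27.

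The fall was not even across messages, as their shares of the mitochondrial footprints show. MT-CO3 took 10.7%, 11.7%, 11.5% and 12.4% of the mitochondrial footprints at 15 h, against 7.63%, 8.78%, 8.81% and 8.09% at 0 h. MT-ATP8 took 0.438%, 0.632%, 0.391% and 0.499% at 15 h, against 0.909%, 0.893%, 0.682% and 1.15% at 0 h. The 15 h and 0 h ranges did not overlap for these 2 messages. They also did not overlap for MT-ND1, MT-ND2 and MT-ND6, whose shares were higher at 15 h, and for MT-ND3, MT-ND4L, MT-ND5, MT-CO1 and MT-CO2, whose shares were lower. The ranges of MT-ND4, MT-CYB and MT-ATP6 overlapped. Since the 13 shares of a library sum to 100%, these are descriptions with no test, and a rise of one share lowers the others.

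From 5 h to 15 h the decline went on for part of the messages. At 15 h against 5 h, 9 of 13 were called lower in footprints and 0 higher, with a median of -0.67; 70.8% of all genes were called in either direction and 36.1% were lower. The changes ran from -1.21 ± 0.42 for MT-ATP8 and -1.08 ± 0.24 for MT-CO2 to -0.40 ± 0.22 for MT-ND6, which was not called. MT-ND1, MT-ND2 and MT-CO3 were not called either. In RNA, MT-CO1 was the 1 of 12 called at 15 h against 5 h (-0.47, 17.7% of all genes lower), a call that ended without 12 of 16 libraries left out singly. The count of 9 was 5 to 12 when 1 library was left out, and it moved by more than 1.5 times without replicate 1 at 5 h and without replicate 3 or 4 at 15 h.

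In RNA the same messages had smaller median changes. The 13 messages made up 0.0622% ± 0.0033 of RNA counts at 15 h and 0.0964% ± 0.0104 at 0 h (SD, n = 4 each), a 1.55-fold difference, with 549 to 698 counts per library at 15 h and 533 to 956 at 0 h. Of the 12 messages tested, 5 fell at 5 h, 7 at 10 h and 4 at 15 h, and 0 rose at any of these times. In all genes tested in RNA, 35.9%, 44.8% and 50.9% were called in either direction at 5, 10 and 15 h, and 16.7%, 21.5% and 25.4% were lower. The median log2 change of the 12 was -0.49, -0.58 and -0.39 at 5, 10 and 15 h, beside -0.03, -0.03 and -0.04 over the 8775 genes tested. The count at 5 h was 2 without replicate 1 at 0 h or replicate 4 at 5 h, and 3 without replicate 2 at 0 h or replicate 2 or 3 at 5 h. At 10 h it was 4 without replicate 2 at 0 h and 3 without replicate 4 at 10 h, and at 15 h it was 2 without replicate 2 at 0 h.

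MT-ND2 and MT-ND3, both of complex I, had the largest RNA falls at 15 h. MT-ND2 RNA was 9.45, 3.74, 9.04 and 11.5 CPM at 15 h, against 24.2, 15.9, 15.9 and 25.4 CPM at 0 h, with no overlap (-1.27 ± 0.36, adjusted p = 0.00587). MT-ND3 changed by -1.20 ± 0.22 (adjusted p = 0.000128). The MT-ND2 call at 15 h and the MT-ND3 calls at all 3 times held without any 1 library. The MT-ND2 call at 5 h ended without 5 of the 16 libraries left out singly (adjusted p 0.0678 to 0.101), and at 10 h without 4 of the 16 libraries left out singly (adjusted p 0.0933 to 0.135).

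MT-ND4 had the largest RNA fall at 10 h, -0.98 ± 0.19 (adjusted p = 0.000215), and was not called at 15 h (-0.36 ± 0.18). Its call at 5 h (-0.54 ± 0.18) ended without 4 of the 16 libraries left out singly (adjusted p 0.0503 to 0.101). Its RNA was 75.1, 82.6, 62.1 and 74.7 CPM at 0 h, 44.9, 56.2, 61.2 and 40.03 CPM at 5 h, 43.01, 36.5, 37.5 and 32.4 CPM at 10 h and 47.3, 52.3, 58.1 and 72.9 CPM at 15 h. The 10 h libraries were below all at 0 h, while 1 of the 15 h libraries lay within the 0 h range. MT-CO1 RNA was 185, 188, 194 and 160.4 CPM at 15 h, against 262, 317, 306 and 206 CPM at 0 h (-0.59 ± 0.17, adjusted p = 0.00658). Without replicate 2 at 0 h the MT-CO1 change was -0.41, adjusted p = 0.076. At 10 h it was -0.58 ± 0.17, and -0.44, adjusted p = 0.065 without replicate 2 at 0 h or -0.44, adjusted p = 0.0682 without replicate 4 at 10 h.

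MT-ND6 RNA was 20.6, 49.8, 14.4 and 17.9 CPM at 0 h, 20.7, 24.1, 37.7 and 28.1 CPM at 5 h, 12.3, 16.3, 14.05 and 11.7 CPM at 10 h and 22.1, 16.8, 28.4 and 38.5 CPM at 15 h. One 0 h library was far above the other 3, and the groups at 5, 10 and 15 h each overlapped the 0 h group. It was called only at 10 h (-0.97 ± 0.36, adjusted p = 0.0354), and the change was -0.33, adjusted p = 0.454 without replicate 2 at 0 h. That call also ended without replicate 1, 3 or 4 at 10 h (adjusted p 0.0545 to 0.109). MT-ND5 fell at 5 and 10 h (-0.79 ± 0.24 and -0.92 ± 0.24). MT-CO2 fell at the same times by 0.57 and 0.55, and MT-CO3 at 15 h by 0.36; the MT-CO2 calls ended without 11 of the 16 libraries left out singly (adjusted p 0.0535 to 0.191) at 5 h and 9 of the 16 libraries left out singly (adjusted p 0.0501 to 0.195) at 10 h, and the MT-CO3 call without 9 of the 16 libraries left out singly (adjusted p 0.065 to 0.269). MT-ND1, MT-ND4L, MT-CYB and MT-ATP6 were not called at 5, 10 or 15 h, with log2 changes between -0.77 and 0.34. In a fit blocked by replicate number, MT-ATP6 (-0.78, adjusted p = 0.0344) and MT-CO2 (-0.42, adjusted p = 0.023) were called lower at 15 h. MT-ATP8 had 0 to 3 counts in each RNA library, too few to follow.

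The mitochondrial messages carried more footprints per RNA count than most genes at the start and lost part of that excess. The log2 ratio of mean footprint CPM to mean RNA CPM had medians over the 12 messages of 2.58, 1.89, 1.46 and 1.16 at 0, 5, 10 and 15 h. Over the 21 nuclear factors the median was -0.64, -0.47, -0.26 and -0.43 at the same times, and over all genes -0.33, -0.37, -0.24 and -0.23. MT-ND5 had a ratio of 3.16 at 15 h and 4.65 at 0 h, the highest at 0 h among the 8736 genes tested, followed among the messages by MT-CYB with 2.95 at 15 h and 4.38 at 0 h. The lowest ratio of the 12 was 0.06 for MT-ND4 at 15 h and 1.23 for MT-CO3 at 0 h. The ratio sets 2 library types side by side, each relative to its own TMM-adjusted total, so its absolute value has no unit of ribosomes per message. Its size depends on this scaling. The ratio of MT-CO1 was 1.11 at 15 h and 2.44 at 0 h. With unadjusted totals that leave out the mitochondrial messages, it was 1.10 and 2.61.

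**Figure D2:**
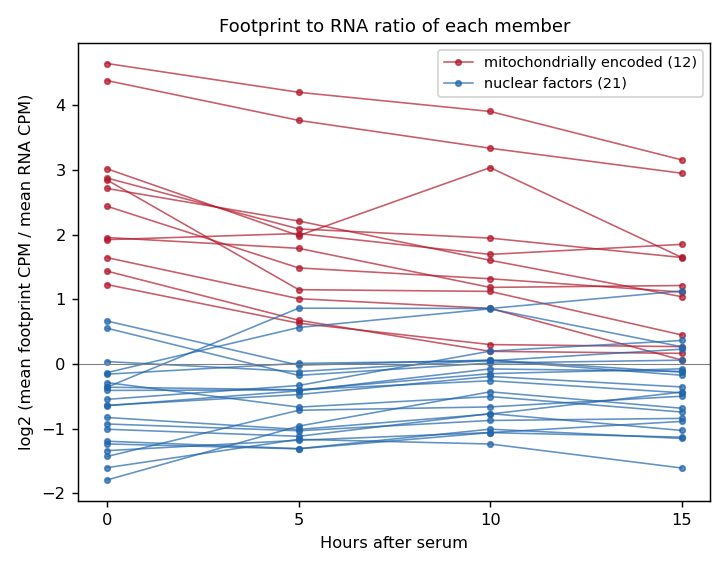
Log2 ratio of mean footprint CPM to mean RNA CPM (y axis) against hours after serum for each of the 12 mitochondrially encoded messages (red) and 21 nuclear factors (blue) tested in both assays; each line is 1 gene and each point the ratio of means of 4 libraries. The red lines lie between 0.06 and 3.16 at 15 h and between 1.23 and 4.65 at 0 h, and the blue lines between -1.61 and 1.13 at 15 h and between -1.79 and 0.66 at 0 h.

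The change of footprints beyond that of RNA (translational efficiency, TE) was tested as the assay-by-time interaction over 32 libraries. This fit gives each gene 1 spread for both assays. The common coefficient of variation between replicates was 0.185 in RNA alone, 0.0547 in footprints alone and 0.102 in this fit. The RNA spread is thus understated here, and TE errors and adjusted p-values may be too small. TE of the mitochondrial messages was called lower for 0 of 12 at 5 h, 3 at 10 h and 7 at 15 h, and higher for 0 at each time. At 5 h 4 of the 12 had an unadjusted p under 0.05. DESeq2 called 2 of the 12 at 5 h, 6 at 10 h and 10 at 15 h. A replicate block, though the numbers were not taken as a pairing in general, gave 4, 9 and 11 at these times, all lower. edgeR called 1 without RNA replicate 4 at 5 h, footprint replicate 3 at 10 h or footprint replicate 4 at 15 h, and 2 without footprint replicate 2 at 5 h or footprint replicate 3 at 0 h. Over all genes tested, 6.4%, 8.7% and 13% were called in either direction at 5, 10 and 15 h, and 1.77%, 1.01% and 1.77% were lower. The median of the 12 was -0.61, -0.93 and -1.30 at 5, 10 and 15 h, beside -0.01, 0.06 and 0.10 over all genes. With limma voom and sample quality weights within each assay, an alternative chosen after seeing the data, all 12 TE changes at 15 h were still negative, from -2.44 to -0.03, but 0 were called (adjusted p 0.0526 to 0.991), and 0 were called at 10 h.

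MT-ND4L had the largest called TE change, -2.44 ± 0.64 at 15 h (adjusted p = 0.00946). Its RNA was 21.01, 8.41, 12.9 and 13.5 CPM at 15 h and 15.7, 5.296, 17.3 and 11.96 CPM at 0 h, overlapping groups of 5 to 20 reads per library. Without replicate 1 of RNA at 15 h, its TE change was -2.26, adjusted p = 0.0617. TE of MT-CO1 was -1.12 ± 0.31 at 10 h (adjusted p = 0.0166) and -1.32 ± 0.31 at 15 h (adjusted p = 0.00294). MT-CO2 (-1.67 ± 0.33), MT-ND4 (-1.58 ± 0.31), MT-ND5 (-1.47 ± 0.35), MT-CYB (-1.41 ± 0.41) and MT-CO3 (-0.95 ± 0.24) made up the rest at 15 h. The MT-CYB call ended without RNA replicate 3 at 15 h (-1.24, adjusted p = 0.0578) or RNA replicate 4 (-1.33, adjusted p = 0.0521). MT-CO2 and MT-CO3 were the other calls at 10 h, and that of MT-CO2 ended without 7 of the 32 libraries left out singly (adjusted p 0.0501 to 0.0973). MT-ND2, whose RNA fell about as much as its footprints, had a TE change of -0.07 ± 0.76 at 15 h and was not called.

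Levels of different genes can be set side by side per counted length. TPM are counts scaled by the deposited length and the library total. MT-CO1 (1306 ± 340.2), MT-CYB (1301 ± 409), MT-CO2 (1231 ± 306) and MT-ND5 (1050.0 ± 266) led the footprint levels at 0 h (SD, n = 4 each), with overlapping ranges. These spreads are between libraries that all genes share. Overlap here therefore does not tell whether 2 genes differ within a library, which was not tested. MT-ND3 (966 ± 253) and MT-CO3 (916 ± 207) overlapped them too. MT-ND6 (586 ± 80.7), MT-ATP8 (500.4 ± 159) and MT-ND4L (499 ± 156) followed, then MT-ND1 (255 ± 67.1) and MT-ND4 (228 ± 62.02). MT-ATP6 (103 ± 31.3) and MT-ND2 (103 ± 33.7) were lowest and overlapped. The order in RNA levels differed: among the mitochondrial messages MT-CO3 led with 277 ± 32.9 TPM at 0 h, followed by MT-ND3 (175 ± 29.2) and MT-CO1 (171 ± 36.8), which overlapped each other. Among nuclear factors the footprint level at 0 h was highest for SLIRP (585 ± 38.4 TPM) and TUFM (221 ± 16.9 TPM) and lowest for MTRF1L (2.36 ± 0.642 TPM), POLRMT (4.45 ± 0.487 TPM) and MTRF1 (4.82 ± 0.928 TPM).

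Footprints of most nuclear factors moved the other way. Of 22 factors, 14 rose and 2 fell at 5 h, 17 rose and 2 fell at 10 h, and 18 rose and 2 fell at 15 h; in all genes 35.2%, 39.4% and 40.1% rose. The median log2 change of the 22 was 0.38, 0.53 and 0.64 at 5, 10 and 15 h. These changes depend on the TMM scaling of the libraries. Mean footprint TPM was lower at 15 h than at 0 h for TUFM (207 and 221), POLRMT (4.085 and 4.454) and SUPV3L1 (22.6 and 25.2). It was also lower for GFM2 (36.2 and 37.9), TEFM (15.8 and 19.2) and MTRF1 (4.78 and 4.82). The other factors called higher at 15 h also had higher mean TPM then. Footprint rises given below are on the TMM scale too. In RNA, 7 rose and 4 fell at 5 h, 6 rose and 4 fell at 10 h, and 10 rose and 5 fell at 15 h of 21 tested, where 19.2%, 23.3% and 25.4% of all genes rose, with medians of 0.23, 0.11 and 0.37. At 15 h against 5 h, 14 rose and 1 fell in footprints (34.8% of all genes rose) and 3 rose and 2 fell in RNA (14.8% of all genes rose, 32.5% changed in either direction). The RNA count at 15 h against 5 h was 2 to 5 when 1 library was left out, and it moved by more than 1.5 times without replicate 2 or 3 at 5 h or replicate 4 at 15 h. The 2 factors lower in footprints at each time against 0 h were TFB1M and MTIF3.

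**Figure D3:**
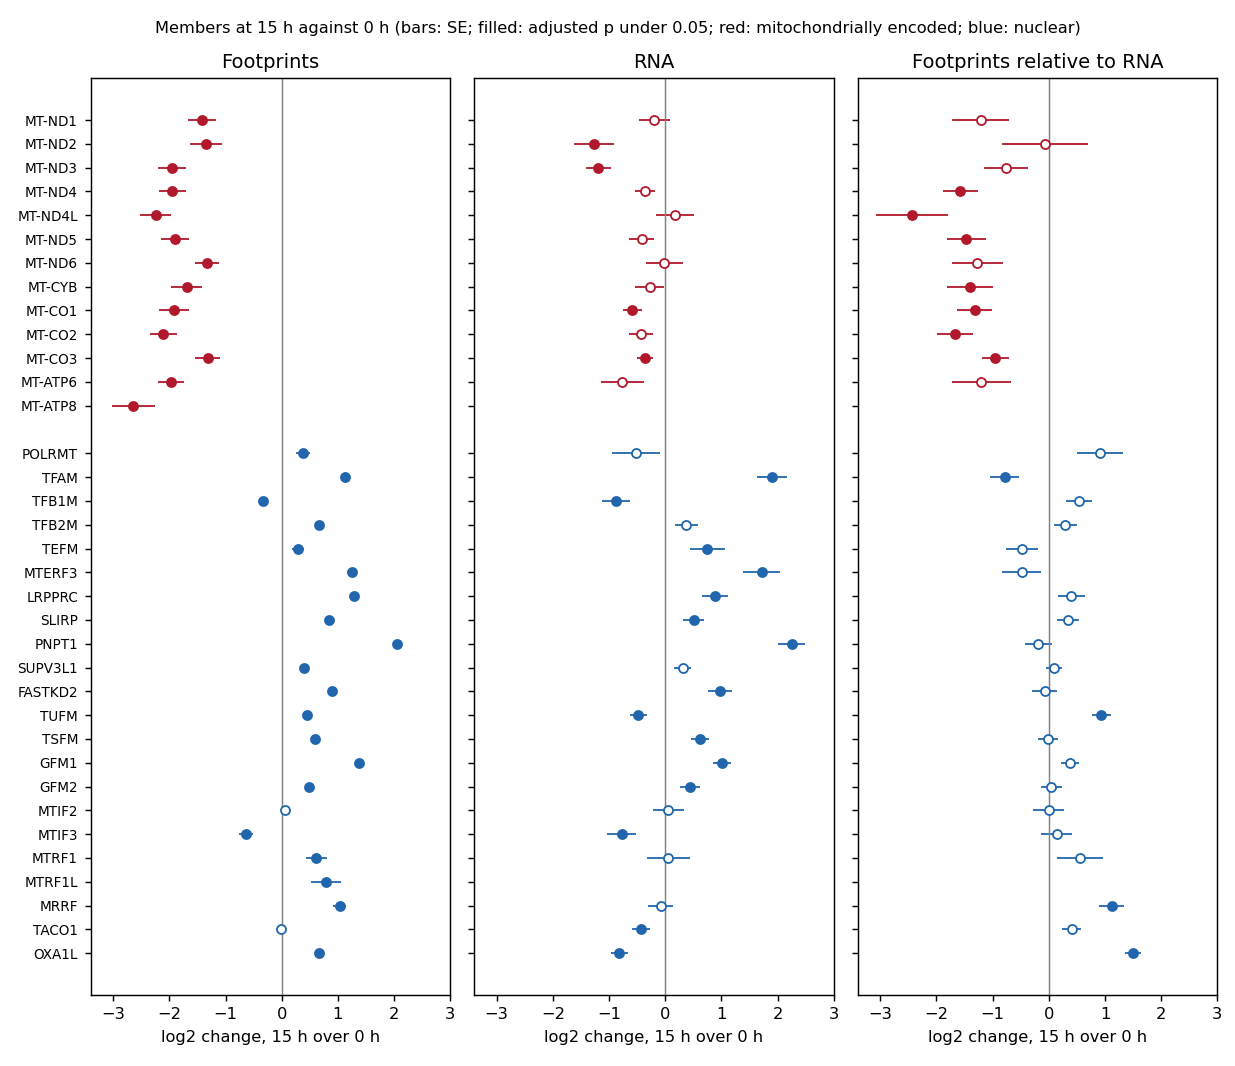
Log2 change at 15 h over 0 h (x axis) of the 13 mitochondrially encoded messages (red, top) and 22 nuclear factors (blue) in footprints, in RNA and in footprints relative to RNA; points are estimates over 4 libraries a group, bars are standard errors, and filled points have adjusted p under 0.05. Every red point in footprints lies between -2.64 and -1.32, while the blue points run from -0.63 (MTIF3) to 2.06 (PNPT1).

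Of the transcription factors, TFAM, which packages mitochondrial DNA and starts its transcription, lies at chr10:58385410-58399220 (GRCh38). Its RNA was 112, 77.6, 95.5 and 119 CPM at 15 h, against 39.97, 16.9, 21.7 and 29.9 CPM at 0 h, and its footprints 83.3, 102, 93.3 and 91.4 CPM at 15 h, against 46.2, 43.1, 44.9 and 37.7 CPM at 0 h. Neither assay's groups overlapped. RNA rose by 1.12 ± 0.28, 1.59 ± 0.27 and 1.90 ± 0.26 at 5, 10 and 15 h (adjusted p = 3.84e-06 at 15 h), and footprints by 0.46 ± 0.07, 0.99 ± 0.07 and 1.13 ± 0.07 (adjusted p = 1.02e-17 at 15 h). The smaller change in footprints gave a TE change of -0.79 ± 0.26 at 15 h (adjusted p = 0.0402), which ended without 9 of the 32 libraries left out singly (adjusted p 0.0503 to 0.19) and under limma voom (adjusted p = 0.0565).

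POLRMT, the mitochondrial RNA polymerase, lies at chr19:617221-633537. Its footprints were 20.2, 16.9, 14.2 and 15.1 CPM at 15 h, against 10.7, 13.6, 13.6 and 11.7 CPM at 0 h, apart but close (0.37 ± 0.12, adjusted p = 0.00554). Its RNA was 5.25, 14.02, 21.9 and 10.4 CPM at 15 h and 12.1, 22.2, 25.99 and 11.96 CPM at 0 h, overlapping, with no call at any time. TFB2M, which helps the polymerase open promoters, was highest at 5 h: footprints changed by 1.19 ± 0.07, 0.94 ± 0.07 and 0.67 ± 0.08 at 5, 10 and 15 h, and RNA by 1.01 ± 0.20 at 5 h (adjusted p = 0.000407). Its RNA was not called at 15 h, and the RNA call at 10 h (0.51 ± 0.20) ended without 9 of the 16 libraries left out singly (adjusted p 0.0511 to 0.164). At 15 h against 5 h it fell in footprints (-0.52 ± 0.06).

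TFB1M, which methylates the small ribosomal RNA of mitochondria, fell in both assays. Its RNA changed by -1.22 ± 0.26, -1.42 ± 0.26 and -0.87 ± 0.25 at 5, 10 and 15 h, and its footprints by -1.01 ± 0.10, -0.90 ± 0.09 and -0.34 ± 0.09. The 15 h change in RNA was -0.55, adjusted p = 0.0712, without replicate 1 at 0 h. MTERF3, of the family of termination factors, had the largest nuclear RNA rise at 10 h: 89.1, 50.9, 51.5 and 57.6 CPM at 10 h, against 18.2, 10.6, 17.3 and 19.4 CPM at 0 h, with no overlap (1.95 ± 0.32, adjusted p = 4.73e-05). Its footprints rose by 1.42 ± 0.08 at 10 h and 1.24 ± 0.08 at 15 h. TEFM, the elongation factor, was called against 0 h at 15 h and not at 5 or 10 h, at 0.28 ± 0.11 in footprints and 0.75 ± 0.31 in RNA. The footprint call ended without replicate 2 (0.25, adjusted p = 0.0517) or replicate 3 (0.20, adjusted p = 0.109) at 0 h, and the RNA call without 7 of the 16 libraries left out singly (adjusted p 0.0525 to 0.136).

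Promoters of genes for mitochondrial transcription are known to hold sites of the factors NRF1 and GABP. In RefSeq (GRCh38.p14), 21 of the 22 nuclear factors had a promoter sequence, and the 250 bases before the annotated start were searched on both strands. The NRF1-type motif, GCGC then A, any base and GCGC, was found in 4 of 21, TFAM, TFB1M, POLRMT and OXA1L, and in 5.07% of the 35116 promoters of the table. The GABP-type motif CCGGAAG was found in 9 of 21 and in 8.52% of all. The promoters of 3 genes with the NRF1-type motif are shown 5′ to 3′ on the gene's strand, with the motif, on either strand, in capitals. They were chosen because their RNA moved differently: TFAM rose, TFB1M fell and POLRMT was not called.
TFAM (chr10:58385160-58385409, plus strand): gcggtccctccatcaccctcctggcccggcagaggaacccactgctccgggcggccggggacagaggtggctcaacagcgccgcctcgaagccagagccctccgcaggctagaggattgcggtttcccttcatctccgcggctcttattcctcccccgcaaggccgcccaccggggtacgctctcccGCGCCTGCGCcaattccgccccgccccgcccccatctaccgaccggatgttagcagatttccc
TFB1M (chr6:155314485-155314734, minus strand): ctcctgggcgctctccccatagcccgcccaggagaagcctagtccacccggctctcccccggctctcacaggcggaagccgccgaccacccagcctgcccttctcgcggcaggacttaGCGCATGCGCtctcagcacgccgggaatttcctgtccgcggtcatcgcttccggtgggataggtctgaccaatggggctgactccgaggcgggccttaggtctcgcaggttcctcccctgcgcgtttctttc
POLRMT (chr19:633538-633787, minus strand): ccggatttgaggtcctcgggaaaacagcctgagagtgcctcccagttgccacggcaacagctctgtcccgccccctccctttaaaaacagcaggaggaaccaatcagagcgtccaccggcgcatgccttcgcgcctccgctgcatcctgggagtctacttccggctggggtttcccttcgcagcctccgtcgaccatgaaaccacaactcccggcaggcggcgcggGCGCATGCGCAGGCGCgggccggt
In POLRMT the capitals cover 2 overlapping matches. A match is a description of the letters and was not tested as a binding site.

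Factors that stabilise or degrade mitochondrial RNA all rose in footprints at 5, 10 and 15 h, 5 of 5 each time, where 35.2%, 39.4% and 40.1% of all genes rose. PNPT1, a polynucleotide phosphorylase of the RNA degradosome, had the largest rise of the 22. Its footprints were 28.99, 28.7, 29.6 and 30.2 CPM at 0 h, 82.02, 91.3, 82.8 and 82.4 CPM at 5 h, 122, 113, 109 and 118 CPM at 10 h and 115, 133, 116 and 125 CPM at 15 h. Its RNA was 149, 107, 124 and 172 CPM at 15 h, against 41.2, 27.5, 14.4 and 31.4 CPM at 0 h. Every library after serum lay above all at 0 h in both assays. Footprints rose by 2.06 ± 0.07 (adjusted p = 1.14e-26) and RNA by 2.25 ± 0.24 (adjusted p = 9.23e-08) at 15 h, so the TE change was -0.19 ± 0.24 and was not called. SUPV3L1, the helicase that works with PNPT1, rose less: 0.31 ± 0.07, 0.16 ± 0.07 and 0.40 ± 0.07 in footprints, where the 10 h call ended without 4 of the 16 libraries left out singly (adjusted p 0.0533 to 0.142). Its RNA was called at 5 h only (0.40 ± 0.14), a call that ended without 5 of the 16 libraries left out singly (adjusted p 0.0597 to 0.107). At 15 h its RNA was called in a fit blocked by replicate number (0.31, adjusted p = 0.0448). The 10 h footprint call and the 5 h RNA call also ended under RLE scaling and DESeq2.

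LRPPRC and SLIRP form the complex that keeps mitochondrial messages stable. LRPPRC footprints were 253, 244, 249.99 and 252 CPM at 0 h, 403, 403, 395 and 388 CPM at 5 h, 549, 548, 512 and 525 CPM at 10 h and 593, 614, 606 and 621 CPM at 15 h, 4 groups that did not overlap. The log2 change was 0.67 ± 0.05, 1.10 ± 0.05 and 1.29 ± 0.05 (adjusted p = 3.62e-25 at 15 h). LRPPRC RNA was 902, 365, 372 and 385 CPM at 15 h, against 274, 299, 229.6 and 293 CPM at 0 h. Replicate 1 at 15 h was far above the others; with it the RNA change at 15 h was 0.89 ± 0.23 (adjusted p = 0.00269), and without it 0.45 (adjusted p = 0.0122). TE was called at 10 h (0.99 ± 0.24, adjusted p = 0.00466) but not at 5 h (0.70 ± 0.24) or 15 h (0.40 ± 0.23). Under limma voom it was called at 5 h (0.70, adjusted p = 0.0229). Without RNA replicate 1 at 15 h it was called at 5 h (0.69, adjusted p = 0.000333) and 15 h (0.74, adjusted p = 0.000164).

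SLIRP footprints were 225, 266, 258 and 259.8 CPM at 15 h, against 143, 131, 151 and 138 CPM at 0 h, and the groups were apart (0.85 ± 0.06, adjusted p = 2.62e-16). SLIRP RNA was 337, 189, 267 and 269.7 CPM at 15 h and 237, 168, 150.2 and 191 CPM at 0 h, overlapping (0.51 ± 0.19, adjusted p = 0.032), and this call ended without 4 of the 16 libraries left out singly (adjusted p 0.0557 to 0.134). FASTKD2, which binds mitochondrial ribosomal and messenger RNA, rose at 5, 10 and 15 h by 0.92 ± 0.06, 1.06 ± 0.06 and 0.89 ± 0.06 in footprints and by 0.95 ± 0.22, 0.96 ± 0.22 and 0.97 ± 0.22 in RNA.

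**Figure D4:**
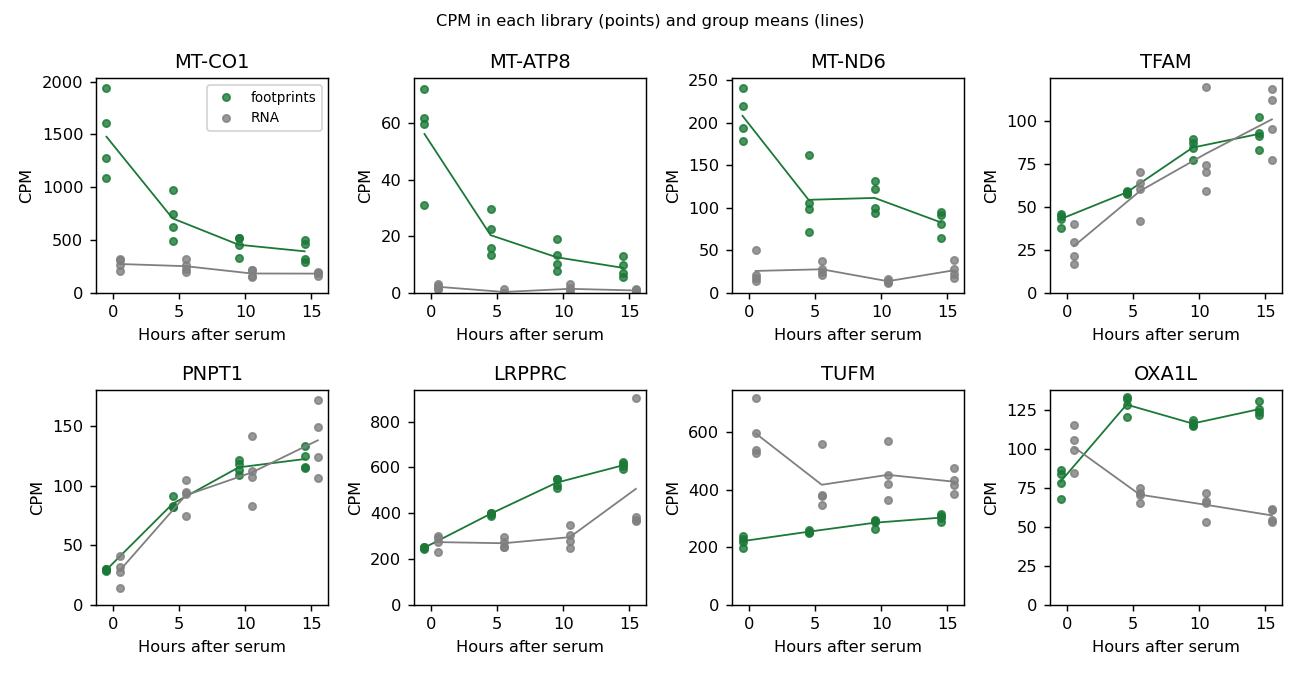
CPM (y axis, from 0) of 8 members against hours after serum, with footprints in green and RNA in grey; each point is 1 library and lines join group means of 4. Footprints of MT-CO1, MT-ATP8 and MT-ND6 decline, and those of TFAM, PNPT1 and LRPPRC climb with 1 LRPPRC RNA library at 902 CPM. On this CPM scale, footprints and RNA of TUFM and OXA1L move in opposite directions. In TPM the footprint ranges of TUFM and OXA1L at 15 h and 0 h overlapped.

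The translation factors divided. Elongation factors rose in footprints, initiation factors did not rise together, and release and recycling factors rose by 15 h. GFM1, which moves the ribosome along the message, rose by 1.38 ± 0.06 in footprints and 1.005 ± 0.16 in RNA at 15 h, and by 1.10 ± 0.06 and 0.94 ± 0.16 at 5 h. TSFM, which recharges TUFM, rose at 10 and 15 h in footprints (0.40 ± 0.09 and 0.60 ± 0.09) and at 15 h in RNA (0.61 ± 0.16). GFM2, which helps to recycle ribosomes, rose by 0.49 ± 0.07 in footprints at 15 h, and its 10 h call (0.20 ± 0.07) was 0.12, adjusted p = 0.1, without replicate 4 at 0 h. Its RNA call at 15 h (0.44 ± 0.18) ended without 6 of the 16 libraries left out singly (adjusted p 0.054 to 0.194). MTIF3, an initiation factor, fell in footprints by 0.81, 0.80 and 0.63 at 5, 10 and 15 h, and in RNA by 0.75, 0.95 and 0.78. Its RNA calls ended without 4 of the 16 libraries left out singly (adjusted p 0.0602 to 0.0728) at 5 h and replicate 1 or 4 at 0 h or replicate 2 at 15 h (adjusted p 0.0609 to 0.0856) at 15 h. MTIF2, the other initiation factor, was called in footprints against 0 h at 10 h (0.22 ± 0.07) and not at 5 or 15 h.

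Of the release factors, MTRF1 rose in footprints at 15 h (0.61 ± 0.18), and MTRF1L at 5, 10 and 15 h (1.22 ± 0.25, 0.82 ± 0.26 and 0.79 ± 0.27). Both are thinly counted, with 19 to 71 and 7 to 40 footprints per library. TACO1, an activator of MT-CO1 translation, was not called in footprints at 5, 10 or 15 h (-0.14, -0.17 and -0.01). Its RNA was called at 15 h (-0.43 ± 0.16), a call that ended without 10 of the 16 libraries left out singly (adjusted p 0.064 to 0.154).

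In OXA1L, TUFM and MRRF footprints and TE were called higher at 5, 10 and 15 h, with RNA called lower in OXA1L and TUFM and not called in MRRF. OXA1L, which inserts newly made subunits into the inner membrane, had RNA of 54.6, 53.3, 60.7 and 61.4 CPM at 15 h, against 84.8, 115, 99.6 and 106 CPM at 0 h. Its footprints were 122, 131, 124 and 126 CPM at 15 h, against 78.4, 83.9, 86.5 and 67.9 CPM at 0 h. On the CPM scale the groups were apart in both assays, in opposite directions. In TPM its footprints overlapped, with 75.9 to 83.0 at 15 h and 62.1 to 79.2 at 0 h. RNA changed by -0.51 ± 0.15, -0.66 ± 0.15 and -0.82 ± 0.15 at 5, 10 and 15 h, footprints by 0.71 ± 0.06, 0.56 ± 0.06 and 0.67 ± 0.06, and TE by 1.22 ± 0.15, 1.23 ± 0.15 and 1.496 ± 0.15 (adjusted p = 3.35e-10 at 15 h). With no filter on low counts the RNA call at 5 h was lost (adjusted p = 0.0525).

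TUFM, the elongation factor that brings transfer RNA to the ribosome, had footprints of 314, 308, 302 and 287 CPM at 15 h, against 228, 239, 219 and 199 CPM at 0 h. Its RNA was 386, 433, 476 and 418 CPM at 15 h, against 538, 598, 719 and 528 CPM at 0 h. Both pairs of groups were apart on the CPM scale. In TPM the TUFM footprints overlapped, with 197 to 213 at 15 h and 198.5 to 237 at 0 h. Footprints rose by 0.20 ± 0.05, 0.37 ± 0.05 and 0.46 ± 0.05 at 5, 10 and 15 h, and by 0.13 at 5 h (adjusted p = 0.0326) without replicate 4 at 0 h. RNA fell by 0.51, 0.40 and 0.48, calls that ended without 4 of the 16 libraries left out singly (adjusted p 0.0533 to 0.0664), 12 of the 16 libraries left out singly (adjusted p 0.0514 to 0.211) and 5 of the 16 libraries left out singly (adjusted p 0.0521 to 0.08). TE was 0.71 ± 0.17, 0.77 ± 0.17 and 0.93 ± 0.17 (adjusted p = 0.000111 at 15 h).

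MRRF, the ribosome recycling factor, had footprints of 20.5, 20.7, 17.7 and 19.5 CPM at 15 h, 19.1, 19.7, 22.3 and 17.4 CPM at 10 h and 10.4, 9.35, 8.13 and 10.6 CPM at 0 h. Its RNA was 31.5, 25.2, 34.9 and 34.4 CPM at 15 h, 29.7, 17.3, 28.1 and 30.6 CPM at 10 h and 35.1, 31.8, 31.8 and 34.4 CPM at 0 h, and was not called. The footprint groups lay above 0 h, while RNA overlapped 0 h at 15 h and lay below it at 10 h. TE was 0.88 ± 0.23, 1.38 ± 0.23 and 1.12 ± 0.22 (adjusted p = 0.000423 at 15 h), and at 5 h it was 0.75, adjusted p = 0.064, without RNA replicate 3 at 5 h.

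In TE, 3 nuclear factors rose and 0 fell at 5 h, 4 rose and 0 fell at 10 h, and 3 rose and 1 fell at 15 h of 21 tested, where 4.62%, 7.69% and 11.2% of all genes rose. OXA1L, TUFM and MRRF were the 3 that rose at each time, LRPPRC was the fourth at 10 h, and TFAM the 1 that fell. The TE rises of OXA1L and TUFM at each time, and of MRRF at 10 and 15 h, held under every alternative run, limma voom included. At 15 h against 5 h, TE was called lower for 1 of 12 mitochondrial messages, MT-CO2 (-1.23 ± 0.34, adjusted p = 0.0459), and for 0 of 21 nuclear factors, where 2.31% of all genes were called, 2.12% higher and 0.195% lower. Of the nuclear factors 1 had an unadjusted p under 0.05 and DESeq2 called 0. The MT-CO2 call ended without 18 of the 32 libraries left out singly and under limma voom.

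Messages known to be translated more after serum often start with a C followed by a run of pyrimidines (a 5′ terminal oligopyrimidine tract). With the RefSeq start, which can be off by some bases, a C followed by at least 4 pyrimidines stood at the first base in 4.07% of all promoters and began within 2 bases of it in 10.5%. Among the 5 factors shown here it stood at the first base in OXA1L and within 2 bases also in TUFM and GFM1. The 5 were picked by their RNA and TE results, so their share cannot be set against that of all promoters. The 10 bases before and 20 after the annotated start are shown for OXA1L, TUFM and MRRF, whose TE rose at each time, and for GFM1 and PNPT1, whose RNA and footprints rose together; capitals mark a run that begins within 2 bases of the start.
OXA1L (chr14:22766678-22766707, plus strand): aaagcaagtCCTCTTCCgggcaaaatggcg
TUFM (chr16:28846329-28846358, minus strand): cgccggaagtgCCTTCCagccgcaggcgcc
MRRF (chr9:122264872-122264901, plus strand): cgacgtccgcgcagctgcggtcgccgccgt
GFM1 (chr3:158644517-158644546, plus strand): ccccggaagtgCTCTTacaacattggctgc
PNPT1 (chr2:55693825-55693854, minus strand): cacagcctgcgttgaccgcgtgccgggtgt
OXA1L, TUFM and GFM1 hold such a run in this window and MRRF and PNPT1 do not. GFM1 holds one without a TE call (0.38 ± 0.16 at 15 h) and MRRF had TE calls without one.

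Other genes of mitochondrial gene expression, from lists apart from the 35 members, are given by their counts at 15 h against 0 h. Of 15 genes of mitochondrial DNA maintenance tested, 11 rose and 2 fell in footprints and 9 rose and 2 fell in RNA; over all genes 40.1% rose and 39.6% fell in footprints, and 25.4% rose and 25.4% fell in RNA. ATAD3A, a membrane protein tied to mitochondrial DNA, rose in RNA (1.88 ± 0.26), and DNA2, a nuclease and helicase of DNA replication in nucleus and mitochondria, had the largest footprint rise (4.35 ± 0.10). TK2, the mitochondrial thymidine kinase, fell in both assays (-1.64 ± 0.19 in RNA, -1.45 ± 0.09 in footprints). Of 28 genes of other RNA processing and modification, 19 rose and 5 fell in footprints and 9 rose and 3 fell in RNA; PUS1, a pseudouridine synthase, rose by 1.54 ± 0.12 in footprints. Of 30 genes of other translation and ribosome assembly, 18 rose and 5 fell in footprints and 9 rose and 6 fell in RNA. TIMM21 rose in RNA (2.46 ± 0.31), and NOA1, a GTPase of mitochondrial ribosome assembly, fell in RNA (-1.36 ± 0.17) with a TE rise of 1.73 ± 0.17. RPUSD4, which modifies mitochondrial ribosomal RNA, showed the same pattern (RNA -1.41 ± 0.16, TE 2.23 ± 0.17). Of 16 biogenesis regulators tested in footprints 9 rose and 5 fell, and of 14 in RNA 7 rose and 1 fell; MYC rose (1.95 ± 0.07) and SIRT3 fell (-1.39 ± 0.12). The median log2 changes of the 4 lists in this order were 0.55, 0.61, 0.35 and 0.25 in footprints and 0.61, 0.41, 0.14 and 0.48 in RNA, beside -0.01 and -0.04 over all genes. In TE, 1 of 15, 3 of 28, 3 of 29 and 0 of 14 of their genes rose and 0 fell, where 11.2% of all genes rose.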

How the data were processed

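The deposited table holds raw read counts per gene for 19023 genes in 32 libraries, which the authors made with STAR 2.5.4a and featureCounts 1.5.1 on GRCh38, per the submitters' processing notes. Per the labels' protocols, total RNA had ribosomal RNA removed and all libraries were made with a small RNA kit. The strand setting, the handling of reads that match nuclear copies of mitochondrial DNA and any use of molecular identifiers are not given in the sources used here. Of the gene lengths in the table, 96.46% are multiples of 3, and those of the mitochondrial genes are shorter than the annotated spans.

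Groups were taken from the labels. CPM are counts relative to a library total adjusted by TMM scaling. Shares of counts and TPM use unadjusted totals, so CPM and shares are on different scales. In each assay edgeR 4.0.16 in R 4.3.3 (limma 3.58.1) was fitted to 16 libraries after its expression filter and TMM scaling, with robust quasi-likelihood tests of each time against 0 h and of 15 h against 5 h. Footprints relative to RNA were tested as the assay-by-time interaction over 32 libraries. Benjamini-Hochberg adjustment of the p-values ran over every gene tested, with calls at 0.05. Changes are log2 with the standard error. The comparisons with 0 h share the 0 h libraries. The procedure was tested on simulated data that gave RNA and footprints the same spread between replicates. The real assays differed in spread, so the simulation does not check the TE test under unequal spread.

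The alternatives were RLE scaling, scaling without the mitochondrial rows, no filter, DESeq2 1.42.0, a replicate block, only the groups compared and each library left out. limma voom was added after seeing the data. The members and lists were chosen with earlier results of these data known. All members are named. Values per library are given for MT-CO1, MT-ND6, TFAM, POLRMT, LRPPRC, SLIRP and TUFM. They are also given for the called member with the largest change in each assay and comparison with 0 h, separately for mitochondrial and nuclear genes. These values cover 0 h and some later time, not always all times. Intervals and errors cover the spread between the 4 biological replicates. Same-numbered RNA libraries at 15 h and 0 h had correlated deviations (0.118 to 0.322), and blocked values stand beside the results of that comparison where they change a call. Replicate 3 at 0 h and replicate 2 at 15 h correlated too (0.413), so these correlations do not settle whether libraries were paired by number. One sequence window and 1 marker gene are not reported here.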

Additional observations from a re-analysis of the deposited data

Results flagged for a closer look

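Of 280 groups of 4 libraries (each member in each assay and time), 13 held a highest or lowest library whose gap to the nearest other, divided by the group's range, was above Dixon's 95% critical value for 4 values. Chance flags about 1 in 20 groups.

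In RNA, MT-ND3 had 40.97 CPM in replicate 1 at 10 h, against 26.54 to 27.92 CPM in the other 3. MT-ATP6 had 17.41 CPM in replicate 1 at 10 h, against 9.366 to 10.57 CPM in the other 3. MT-ATP8 had 1.177 CPM in replicate 3 at 5 h, against 0 CPM in the other 3. TFB1M had 19.62 CPM in replicate 2 at 15 h, against 32.27 to 34.37 CPM in the other 3. LRPPRC had 902.4 CPM in replicate 1 at 15 h, against 365.4 to 385.3 CPM in the other 3. FASTKD2 had 164.7 CPM in replicate 1 at 0 h, against 99.63 to 108 CPM in the other 3. FASTKD2 had 149.4 CPM in replicate 2 at 5 h, against 253.1 to 265.7 CPM in the other 3. TUFM had 560.5 CPM in replicate 2 at 5 h, against 348.5 to 380.8 CPM in the other 3. GFM2 had 132.4 CPM in replicate 2 at 5 h, against 169.6 to 175.2 CPM in the other 3. Replicate 2 at 5 h stood apart in 3 of these genes and replicate 1 at 10 h in 2.

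In footprints, MT-ATP6 had 9.962 CPM in replicate 3 at 15 h, against 12.63 to 13.14 CPM in the other 3. MTERF3 had 39.87 CPM in replicate 3 at 5 h, against 44.57 to 45.38 CPM in the other 3. PNPT1 had 91.25 CPM in replicate 2 at 5 h, against 82.02 to 82.84 CPM in the other 3. GFM1 had 171.7 CPM in replicate 4 at 15 h, against 155.5 to 156.3 CPM in the other 3. The LRPPRC library bears on the RNA and translational efficiency results of that gene, which are given with and without it above.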

How the results depend on the processing

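All 13 mitochondrial messages kept their footprint calls at 5, 10 and 15 h under every alternative except 1 call under only the groups compared, and no direction of a called member reversed under any alternative run. For mitochondrial messages, without any filter on low counts 2 were called in RNA at 5 h, against 5, and 0 in RNA and in translational efficiency (TE) at 15 h against 5 h, against 1 each. At 15 h against 5 h, RLE scaling, DESeq2 and only the groups compared each called 0 in RNA, against 1, and only the groups compared and limma voom called 0 in TE, against 1. DESeq2 called 2, 6 and 3 in TE at 5 h, at 10 h and at 15 h against 5 h, against 0, 3 and 1. limma voom called 0 in TE at 10 and 15 h, against 3 and 7. Scaling without the mitochondrial rows called 1 nuclear factor in TE at 15 h against 5 h, against 0. Beyond the constructions named, the cause was not tested.

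Replicate numbers are shared across groups. Over the genes tested, same-numbered libraries correlated at -0.247 to 0.543 in RNA (17 of 24 pairs over 0.1) and -0.0678 to 0.187 in footprints (3 of 24). Pairs with unlike numbers correlated at -0.498 to 0.512 in RNA (14 of 72 over 0.1) and -0.161 to 0.189 in footprints (3 of 72). The medians were 0.181 for same-numbered and -0.0711 for unlike-numbered pairs in RNA, and 0.0351 and -0.0118 in footprints. Same-numbered RNA libraries were thus more alike, with exceptions both ways, and whether the numbers mark a pairing is not settled. The main fits did not take the numbers as a pairing. Correlations over all genes do not speak for the mitochondrial messages, whose footprint shares differed by replicate number. For RNA at 15 h against 0 h all 4 correlations of same-numbered libraries were over 0.1 (0.118 to 0.322). That of replicate 3 at 0 h with replicate 2 at 15 h was 0.413. With the block that comparison had 6 mitochondrial and 16 nuclear calls, against 4 and 15. With the replicate block, 37 results of single members became calls and 0 were lost. Under the block, mitochondrial TE calls were 4, 9 and 11 at 5, 10 and 15 h, and 3 at 15 h against 5 h. Nuclear TE calls under the block were 6 at 5 h, against 3, 7 at 15 h, against 4, and 1 at 15 h against 5 h, against 0. Nuclear RNA calls at 15 h against 5 h were 9 under the block, against 5.

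With 1 library left out, mitochondrial RNA calls were 2 to 5 at 5 h, 3 to 7 at 10 h, 2 to 4 at 15 h and 0 to 1 at 15 h against 5 h. Nuclear RNA calls were 8 to 11, 8 to 10, 10 to 16 and 2 to 5 in the same comparisons. Mitochondrial footprint calls were 13 to 13 against 0 h and 5 to 12 at 15 h against 5 h, and nuclear ones 16 to 18, 17 to 20, 19 to 20 and 13 to 16. Mitochondrial TE calls were 0 to 2, 2 to 4, 6 to 8 and 0 to 1, and nuclear ones 2 to 4, 4 to 5, 3 to 5 and 0 to 1. The mitochondrial share of footprints was 0.649% to 0.787% at 0 h, 0.253% to 0.308% at 5 h, 0.189% to 0.217% at 10 h and 0.151% to 0.176% at 15 h; in RNA it was 0.0924% to 0.1004%, 0.0695% to 0.0752%, 0.0600% to 0.0648% and 0.0611% to 0.0637%. RNA depth, with 360 to 956 mitochondrial counts per library, limits the RNA and TE comparisons.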
